A study of Mus musculus with 28 samples.

Results

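H3K9me2, the dimethyl mark on lysine 9 of histone H3, lies in broad domains over repressed chromatin. Described here are the autosomal regions that carried an H3K9me2 domain in 3 of 4 sorted domain sets of mouse embryonic stem cells (mESCs) and lacked one in the remaining set, 2-cell-like cells (2CLCs) under DMSO. They were found by taking the bases of chromosomes 1 to 19 in the mESC DMSO, mESC dTAG and 2CLC dTAG domains but not in the 2CLC DMSO domains, joining segments under 1 kb apart, and keeping runs of at least 20 kb. The rule gave 661 regions, of 9498 runs of that length held by at least 3 of the 4 sorted sets. The members were thus chosen by the presence or absence of domains in the 4 sorted sets, and these values are given as a description without a test.

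The cells were EHMT2-dTAG mESCs, made from the KH2 line and labelled as a BL6/129 hybrid. Both copies of Ehmt2 encode a protein fused to a degron and HA tags, and the same cassette carries an mCherry reporter of Ehmt2 transcription. The cells also carried a MERVL-GFP reporter. All 4 sorted conditions came from 1 clone of this line per the methods, in separate experiments. The cultures were grown with serum and LIF on mouse embryonic fibroblast feeders. They were treated for 72 h with the solvent DMSO or with the degrader dTAG-13. GFP-negative cells were sorted as mESCs and GFP-positive cells as 2CLCs, a rare state of these cultures that resembles the 2-cell embryo. Each condition has 3 immunoprecipitation and 3 input libraries among the 28 of the series. The series also holds 2 immunoprecipitation and 2 input libraries of bulk, unsorted mESCs under DMSO for 24 h. Per the labels, 2 unnamed replicates also received TTNBP, an agonist of retinoic acid receptors, which the methods mention without that limit. Because 1 domain set stands for each condition, no spread between replicates could be computed, no condition is tested against another, and the depth behind a domain is unknown. Domain positions cannot check the identity of the sorted cells, and a missing domain cannot tell loss of the mark from all cells apart from its loss in a portion of them.

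EHMT2 and its partner EHMT1 place H3K9me2, and their activity is linked to silencing of lineage genes and of some retroviral elements. Many mouse zinc finger genes lie in clusters of recent tandem duplicates, and many of their products join a DNA-binding array of zinc fingers to a KRAB domain that recruits TRIM28 and with it other H3K9 methyltransferases to retroviral sequences. The 2CLC state is known for activity of MERVL elements and of gene families of the 2-cell embryo such as Zscan4.

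The sequences that follow show how some of the regions differ in recurring sequence. Capitals mark bases covered by a 50-base word that recurs elsewhere on the same chromosome and strand of GRCm38.p6. A single read of that length would match more than 1 place. Per the methods, the libraries were sequenced as pairs of longer reads, and a read with several matches was placed at 1 of them. A recurring word thus does not by itself make a read pair ambiguous. Copies on other chromosomes or on the other strand are not marked. The promoters, from 250 bases before to 50 after the gene start in RefSeq, belong to 3 zinc finger genes of the widest region, on chromosome 4, and to Lrrk2, which encodes a large kinase and starts in a single-gene region on chromosome 15. All 4 are on the plus strand, at chr4:146156577-146156876 (Zfp600), chr4:147021600-147021899 (Rex2), chr4:147553027-147553326 (Zfp985) and chr15:91672974-91673273 (Lrrk2).
Zfp600: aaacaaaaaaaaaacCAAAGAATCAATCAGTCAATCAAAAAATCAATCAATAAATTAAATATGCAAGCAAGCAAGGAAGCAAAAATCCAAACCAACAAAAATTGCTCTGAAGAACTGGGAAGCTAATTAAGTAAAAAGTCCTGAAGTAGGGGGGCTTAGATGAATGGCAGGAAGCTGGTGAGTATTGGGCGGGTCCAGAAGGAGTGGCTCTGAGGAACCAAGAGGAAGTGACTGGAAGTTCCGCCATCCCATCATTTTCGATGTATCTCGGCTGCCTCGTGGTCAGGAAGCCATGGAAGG
Rex2: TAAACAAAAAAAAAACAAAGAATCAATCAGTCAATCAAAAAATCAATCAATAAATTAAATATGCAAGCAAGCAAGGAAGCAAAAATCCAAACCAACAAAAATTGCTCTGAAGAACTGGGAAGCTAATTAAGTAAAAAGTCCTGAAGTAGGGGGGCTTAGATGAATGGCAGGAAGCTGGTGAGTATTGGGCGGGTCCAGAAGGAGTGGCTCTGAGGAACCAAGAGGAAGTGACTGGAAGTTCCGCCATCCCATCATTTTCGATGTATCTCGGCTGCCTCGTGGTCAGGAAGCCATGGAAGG
Zfp985: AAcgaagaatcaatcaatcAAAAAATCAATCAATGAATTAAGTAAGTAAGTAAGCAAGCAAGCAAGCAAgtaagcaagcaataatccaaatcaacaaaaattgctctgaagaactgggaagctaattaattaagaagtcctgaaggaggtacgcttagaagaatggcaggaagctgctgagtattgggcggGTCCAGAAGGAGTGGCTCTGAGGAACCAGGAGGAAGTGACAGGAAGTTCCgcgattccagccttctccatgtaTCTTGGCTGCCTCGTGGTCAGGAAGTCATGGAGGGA
Lrrk2: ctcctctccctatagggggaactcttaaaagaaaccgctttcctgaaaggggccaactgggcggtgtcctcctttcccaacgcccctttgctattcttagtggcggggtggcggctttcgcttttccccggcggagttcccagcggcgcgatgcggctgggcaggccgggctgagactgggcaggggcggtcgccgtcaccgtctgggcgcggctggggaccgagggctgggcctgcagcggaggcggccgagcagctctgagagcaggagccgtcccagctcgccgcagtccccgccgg
Recurring words covered 95% of the Zfp600 promoter, 100% of that of Rex2, 46% of that of Zfp985 and none of that of Lrrk2. Below are the central 200 bases, plus strand, of the second and the fourth widest regions, at chr12:23631997-23632196 and chr5:126073526-126073725. They contrast a region made mostly of recurring words with a wide region that holds few.
Chromosome 12 centre: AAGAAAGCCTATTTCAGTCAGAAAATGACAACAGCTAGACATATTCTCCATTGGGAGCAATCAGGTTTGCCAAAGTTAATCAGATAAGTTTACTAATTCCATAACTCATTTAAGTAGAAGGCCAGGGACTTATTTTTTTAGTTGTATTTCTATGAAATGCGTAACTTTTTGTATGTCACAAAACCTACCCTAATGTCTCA
Chromosome 5 centre: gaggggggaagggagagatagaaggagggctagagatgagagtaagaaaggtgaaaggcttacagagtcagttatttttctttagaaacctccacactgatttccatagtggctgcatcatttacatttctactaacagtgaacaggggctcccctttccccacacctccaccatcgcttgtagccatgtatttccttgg

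The 661 regions together covered 30.2 Mb, 1.23% of the autosomes. Most were narrow. Their median width was 35 kb (95% interval of the median over regions 30 to 35 kb), and 494 regions (74.7%) were under 50 kb. Another 139 measured from 50 kb to under 100 kb, and 28 measured 100 kb or more. The 10 widest held 15.7% of all the length, and the 2 widest alone held 11.1%. As background, of 183397 bins of 5 kb inside domains of the 3 other sorted sets, 7466 (4.07%) lay outside the 2CLC DMSO domains.

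The length limit decided which runs became members. Before it, 1534 runs were found, and the 661 kept (43.1%) held 81.0% of their 37.3 Mb. The shortest kept run measured 20000 bp and the longest one left out 19999 bp, since bins of the 5 kb grid vary by a base or so. The runs just inside the limit were 126 of 4 bins, and those just outside were 3 runs of 4 bins that fell short by those bases and 201 runs of 3 bins. A further 535 runs were a single bin wide. Joining segments under 1 kb apart changed nothing, because no segments lay that close.

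Every autosome held regions, from 10 on chromosome 19 to 59 on chromosome 5. Relative to the bases where the 3 other sets all carried a domain, the regions took between 1.5% on chromosome 3 and 7.09% on chromosome 12. Chromosome 4 held only 21 regions, but its widest one brought its length to 3.13 Mb (4.66% of such bases). Regions also lay near each other. Of the 661, 193 (29.2%) had another within 100 kb and 418 (63.2%) had another within 1 Mb.

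**Figure D1:**
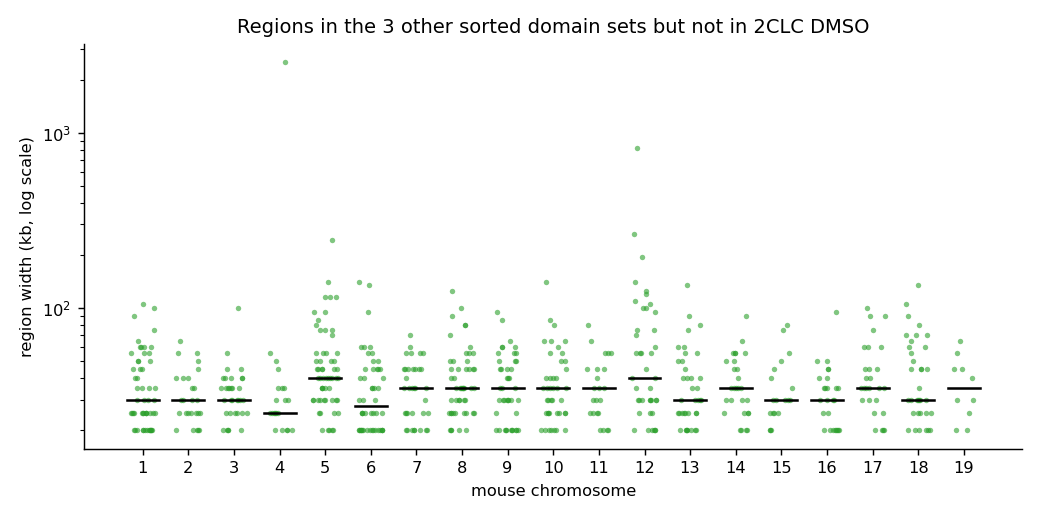
Width of each of the 661 regions in kb (log axis) by chromosome, 1 point per region, with points spread sideways for legibility and a black bar at the median of each chromosome. Medians lie at or below 40 kb, while chromosomes 4 and 12 hold the 2 widest regions, of 2530 and 820 kb.

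The widest region, chr4:145324425-147854421 in mm10, measured 2530 kb and held a cluster of zinc finger genes. The mESC DMSO domain there had exactly the bounds of the region, at 2530 kb, while the mESC dTAG domain measured 2580 kb and the 2CLC dTAG domain 2560 kb. In 2CLC DMSO no base of the interval lay in a domain, and the nearest domains were 450 kb to the left and 8055 kb to the right. The interval was thus a single block that was present whole or absent whole in each sorted set. The 500 kb on each side were sparsely covered in every sorted set, at 5.00% in mESC DMSO and in 2CLC DMSO, 7.00% in 2CLC dTAG and 10.0% in mESC dTAG. The fifth deposited set, whose name gives neither cell state nor treatment and which the rule did not use, covered 99.6% of the region and 13.5% of those flanks.

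**Figure D2:**
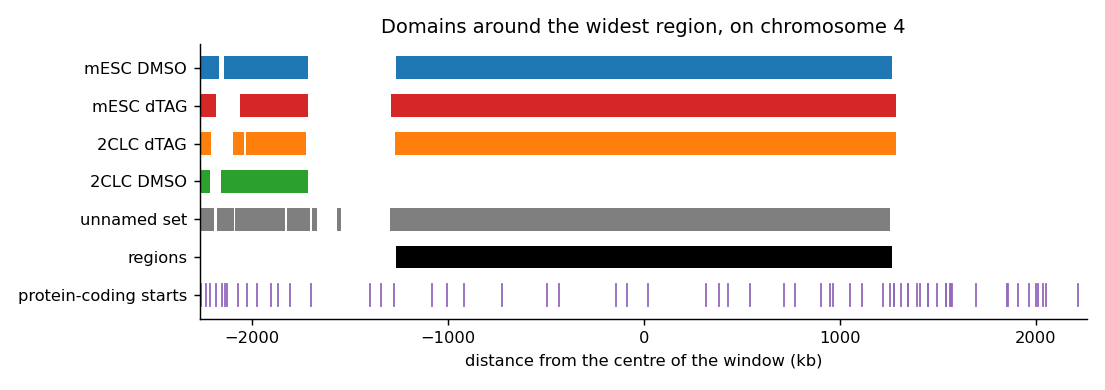
Domains of the 5 deposited sets (colored bars), the region (black) and starts of protein-coding genes (purple ticks) in a window around the widest region, by distance from its center in kb. The block is filled in every set except 2CLC DMSO, while the domain to its left is present in 2CLC DMSO too.

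In the GENCODE annotation, 22 protein-coding genes start in this block, and 19 carry zinc finger symbols: Zfp990, Zfp980, Zfp986, Zfp987, Zfp600, Zfp992, Zfp981, Zfp993, Zfp989, Rex2, Zfp991, Zfp988, Zfp978, Zfp982, Zfp985, Zfp979, Zfp534, Zfp984 and Zfp933. The other 3 were Gm13212, Gm21411 and Gm16503. Counting pseudogenes and noncoding genes, 95 genes start there. The gene bodies are small within the block. Zfp600 spans 41.9 kb on the plus strand (chr4:146156824-146198755), Rex2 spans 38.9 kb (chr4:147021850-147060794), and Zfp984, the longest, spans 55.8 kb on the minus strand (chr4:147753974-147809788). Whole gene bodies of protein-coding genes made up 27.2% of the block, so most of it lies between genes.

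Much of the block's sequence is missing from the assembly or occurs in several copies. Of its bases 17.1% are N in the assembly, and 56.2% of its 50-base words recur on the chromosome. Of its 22 gene starts, 12 had a RefSeq promoter within 1 kb, and these promoters resembled each other. Over their 66 pairs the median identity was 73.0% (range 48 to 99.3%), with 21 pairs at 80% or more. The most alike pair was Zfp600 and Rex2, printed above, at 99.3%, and Zfp979, on the other strand, matched each of these at 94.8%. For comparison, 54 pairs of promoters from other regions, neighbors in the order by width, had a median of 48.8% and none reached 80%. Reads from such copies can be split or assigned to the wrong member, so the values of single genes in this block are uncertain, and the part of mappability in the missing domain was not tested. The 3 other sorted sets were called over the same sequence, but the depth behind each set is unknown, so no conclusion is drawn from this.

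These 12 promoters were poor in CpG and shared a motif. Their median was 5 CpG in 300 bases (range 3 to 9), against 16 in all 13554 autosomal promoters matched in the same way. The letters CCAAT, searched on both strands, occurred in 11 of the 12 (91.7%), against 38.4% of all promoters and 38.2% of the 55 promoters in other regions. TATAAA, also searched on both strands, occurred in none of the 12, in 7 of the 55 and in 11.2% of all. All pairs without Zfp933 were 59.6 to 99.3% identical, and these 11 promoters do not count as independent sequences. The promoter of Zfp933 was only 48 to 51.3% identical to the others, within the range of promoters from other regions, and it was the 1 of the 12 without CCAAT. The motifs were only searched as letters, and a match of letters is a description, not a binding site.

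Zinc finger genes were the largest gene family in the regions. Of 20807 autosomal protein-coding genes, 121 (0.582%) started in a region, and of 451 genes with zinc finger symbols (Zfp, Zkscan, Zbtb, Zik1, Rsl1, Rex2 and Zscan other than Zscan4) 24 did (5.32%). These 24 lay in 4 regions, 19 of them in the chromosome 4 block. Across the sorted sets, the number of the 451 with a start inside a domain was 77 (17.1%) for mESC DMSO and 75 (16.6%) for 2CLC DMSO, beside 170 (37.7%) for mESC dTAG and 174 (38.6%) for 2CLC dTAG. For all protein-coding starts these shares were 21.4% and 22.1% under DMSO, and 22.8% and 25.5% under dTAG. The DMSO sets thus held about the same number of zinc finger starts, and both dTAG sets held more. The paper reports that EHMT2 depletion lowered H3K9me2 globally. A domain is a call relative to other bins, so these counts do not show more H3K9me2 at zinc finger genes under dTAG. Of 70 zinc finger starts in the 3 other sets, 30 (42.9%) lay outside 2CLC DMSO domains, beside 179 of 3177 (5.63%) for all protein-coding starts, and these shares belong to the contrast that chose the regions.

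The other zinc finger members sat in smaller clusters. The region chr13:62462864-62597862, 135 kb wide, held the starts of Zfp935, Zfp934 and Gm49359, and the unnamed set covered 0.153% of it. It was cut from a mESC DMSO domain of 465 kb, of which 71% also lay in a 2CLC DMSO domain, and it touched that domain at its left edge. The region chr17:33276970-33376969, 100 kb wide, held the starts of Zfp955b and Zfp81 and was not covered by the unnamed set. Unlike the chromosome 13 region, it made up a whole mESC DMSO domain of 100 kb without a 2CLC DMSO base. The last zinc finger start was that of Zfp972 on chromosome 2, in a region of 30 kb.

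A second concentration lay near the start of chromosome 12, and it was chosen for description after its values were seen. Between chr12:17892105 and chr12:24042096, a span of 6.15 Mb, 19 of the 41 regions of the chromosome held 76.4% of its region length, 2.53 Mb in all. They included 4 of the 10 widest regions. The widest of them, chr12:23222098-24042096, measured 820 kb, and chr12:19942102-20207101, chr12:19227103-19422102 and chr12:22032099-22172098 measured 265, 195 and 140 kb. The median share of recurring 50-base words in the 19 was 74.3% (range 22.8 to 92.2%), against 7.62% over the autosomes, and 13 of the 19 were at 50% or more. Protein-coding genes were nearly absent, with only Gm10330 and Gm21863 starting there. The 2 dTAG sets filled the span almost evenly, at 92.6% in mESCs and 90.1% in 2CLCs, while mESC DMSO covered 72.9% and 2CLC DMSO 32.8%.

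In this span the domains differed between the sets in how they were broken up as well as in cover. Several of the regions fell in 1 mESC dTAG domain of 3295 kb, while the mESC DMSO domains that held them were narrower, at 285 kb for the 265 kb region and exactly 195 kb for the 195 kb region. The unnamed set covered 41.1% of the span. It covered at least 50% of the length of 12 of the 19 regions but only 4.28% of the widest one.

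**Figure D3:**
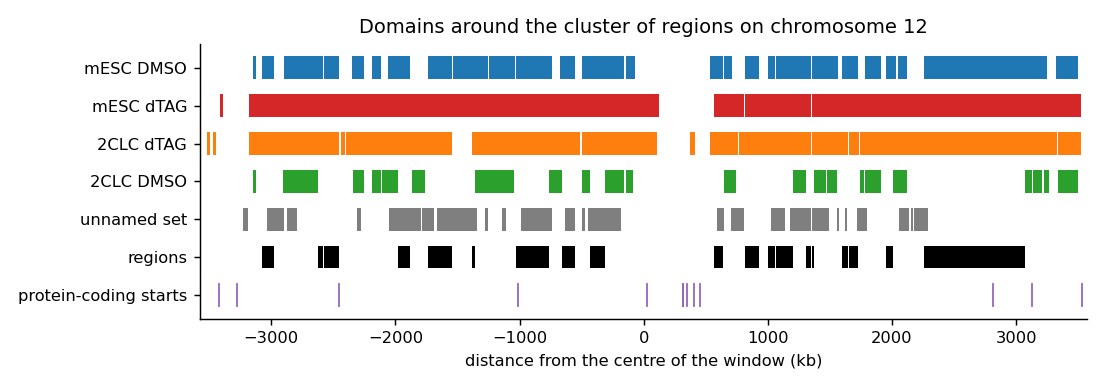
Domains of the 5 deposited sets (colored bars), the 19 regions (black) and protein-coding starts (purple ticks) around the chromosome 12 cluster, by distance from the center of the window in kb. The dTAG sets cover 92.6% of the span in mESCs and 90.1% in 2CLCs, while mESC DMSO and 2CLC DMSO cover 72.9% and 32.8%. At the 265 kb region the mESC dTAG domain measures 3295 kb and the 2CLC dTAG domain 870 kb.

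Another concentration, also chosen after its values were seen, lay on chromosome 5 and differed in sequence from the chromosome 4 block and the chromosome 12 cluster. Between chr5:125711127 and chr5:133071116, 25 of the 59 regions of the chromosome lay within 7.36 Mb and held 1.71 Mb. None contained a protein-coding gene start. Their median share of recurring 50-base words was 5.07% (range 0.562 to 23.0%), with none at 50%, and so below the autosomal 7.62% at the median. The 2CLC DMSO set covered 5.77% of the span, against 42.5% for mESC DMSO, 42.8% for mESC dTAG and 36.0% for 2CLC dTAG. The widest regions there were chr5:125951126-126196125 (245 kb) and chr5:132616117-132756116 (140 kb), both without a 2CLC DMSO domain within 200 kb. The unnamed set covered at least 50% of the length of 23 of the 25.

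The remaining regions among the 10 widest contained no gene start. Regions chr6:143436217-143576216 and chr10:65349914-65489913 measured 140 kb each, and chr6:48221344-48356342 measured 135 kb. The chromosome 10 region was a gap within a wide domain: its mESC DMSO domain measured 1595 kb, 82.8% of that domain was in a 2CLC DMSO domain too, and 2CLC DMSO domains began at both of its edges. The chromosome 6 regions were the opposite case, with no 2CLC DMSO domain at either edge. On the other chromosomes with a region of 100 kb or more, the widest were chr1:34880163-34985162 (105 kb), chr3:10089498-10189497 (100 kb), chr8:68917918-69042917 (125 kb) and chr18:82264508-82399506 (135 kb). Only the chromosome 3 region of these held a protein-coding start, that of Pmp2, which encodes a lipid-binding protein of myelin. One region of 95 kb, chr12:87657012-87752011, named here after its values were seen, consists of N bases throughout, so the domains there bridge an assembly gap.

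Most regions lay apart from any 2CLC DMSO domain. Only 26 regions (3.93%) met a 2CLC DMSO domain within 1 kb at both edges, 114 (17.2%) met one at 1 edge, and 521 (78.8%, 95% interval over regions 75.5 to 81.8%) met one at neither. A 2CLC DMSO domain lay within 10 kb on both sides of 45 regions (6.81%, 5.13 to 8.99%). When the same measure was taken for regions missing from the other sets, against the set that lacked them, it was 9.36% for mESC DMSO, 22.2% for mESC dTAG and 34.0% for 2CLC dTAG. The 95% intervals over the regions missing only in mESC dTAG, 20.1 to 24.5%, and only in 2CLC dTAG, 31.1 to 37.0%, lay above that of the regions missing only in 2CLC DMSO. That of the regions missing only in mESC DMSO, 7.19 to 12.1%, overlapped it. On the autosomes each DMSO set had 3870 domains, while mESC dTAG had 6770 and 2CLC dTAG 8281. The part of domain number in this measure was not tested.

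The domains that held the regions differed in width. A region lay in a mESC DMSO domain of median 160 kb (135 to 180 kb), in a mESC dTAG domain of median 70 kb (60 to 75 kb) and in a 2CLC dTAG domain of median 60 kb (55 to 65 kb). The median region took 25.9% of its mESC DMSO domain. Of 570 mESC DMSO domains that held a region, 320 (56.1%) had no 2CLC DMSO base at all, and 360 regions (54.5%) lay in such domains. Where a region ended, a 2CLC dTAG domain ended in 650 of 1322 cases (49.2%), a mESC dTAG domain in 543 (41.1%) and a mESC DMSO domain in 370 (28%).

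Just outside the regions, at 2.5 kb from an edge, 72.0% of edges were in a mESC DMSO domain, 58.9% in a mESC dTAG domain, 50.8% in a 2CLC dTAG domain and 12.6% in a 2CLC DMSO domain. The 2CLC DMSO share climbed slowly with distance, to 28.4% at 47.5 kb and 36.1% at 197.5 kb. This was still below its autosomal cover of 49.7%, so the surroundings were poor in 2CLC DMSO domains for at least that far. The mESC DMSO share fell to 50.7% at 197.5 kb, near its autosomal cover of 52.4%. The dTAG sets also ended below their own covers, at 36.4% against 44.6% in mESCs and 39.4% against 46.7% in 2CLCs.

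**Figure D4:**
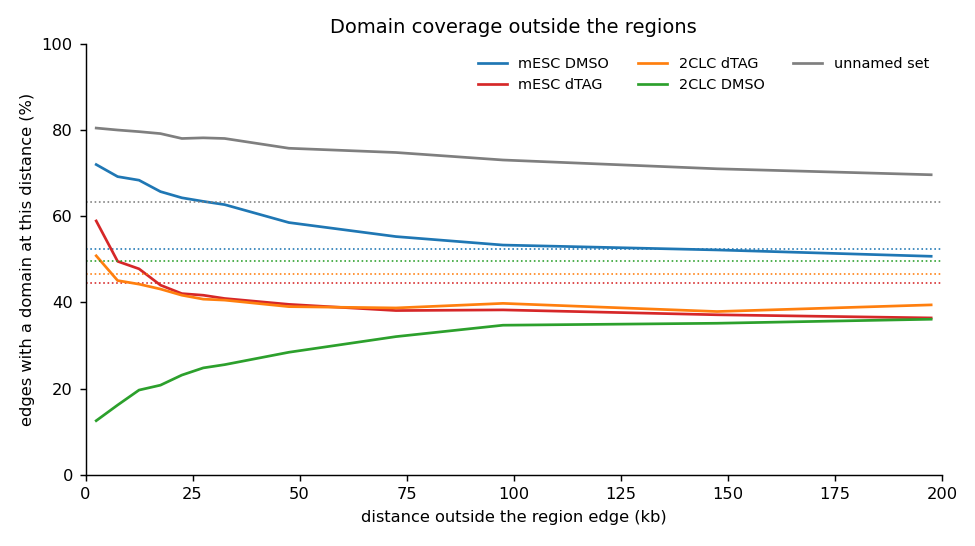
Share of the 1322 region edges with a domain of each set (percent) by distance outside the edge (kb), with dotted lines at the autosomal cover of each set in the same color. The 2CLC DMSO curve rises from 12.6% to 36.1% and stays under its dotted line at 49.7%.

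The unnamed set, which the rule did not use, carried a domain over most regions. It covered at least 50% of the length of 563 of the 661 (85.2%, 82.3 to 87.7%), at least 99% of 486, and none of 76 (11.5%). This was above the 67.2% of regions missing only in mESC DMSO (63.1 to 71%) and below the 96.2%, 95.5% and 95.4% of regions missing only in mESC dTAG, missing only in 2CLC dTAG and present in all 4. By bases, the unnamed set covered 83.4% of the 661 regions and 63.3% of the autosomes. In the other classes it covered 67.1% of bases missing only in mESC DMSO, 95.3% missing only in mESC dTAG, 94.2% missing only in 2CLC dTAG and 94.1% in all 4. Its cells and treatment are not named. It may come from the sorted libraries behind the other sets or from the bulk mESC libraries under DMSO. It is thus not an independent check of the domains of the 3 other sets.

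The regions had a higher median GC content than the other classes. It was 42.4% (42.2 to 42.6%), against 41.3% in regions missing only in mESC DMSO, 40.1% and 39.6% in those missing only in mESC dTAG and only in 2CLC dTAG, and 39.6% in those in all 4. The 95% interval of their median overlapped none of the others, and the autosomes as a whole were at 41.9%. The order held within width classes against the regions in all 4 sets. It was 42.3% against 40.5% at 20 to under 50 kb, 42.6% against 39.8% at 50 to under 100 kb, and 43.7% against 38.6% at 100 kb or more. Of the 28 regions of 100 kb or more, 10 lay in the chromosome 12 cluster. Against regions missing only in mESC DMSO, the intervals overlapped at 100 kb or more (41.8 to 44.3% and 40.1 to 42.5%) but not at the smaller widths. Intervals over regions give the uncertainty of a median or share as if regions were independent, not the spread of single regions. Regions are not replicates of a condition, and 63.2% had another within 1 Mb, so the intervals may be too narrow. Base composition can affect recovery in immunoprecipitation and sequencing, which was not tested.

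Soft-masked interspersed and simple repeats made up a median of 41.1% of a region (40 to 42.3%), close to that of the regions in all 4 sets (42.2%), against 28.3% and 27.9% in regions missing only in mESC dTAG and only in 2CLC dTAG. Recurring 50-base words made up 13.8% (11.9 to 15.2%), against 2.55% and 2.32% in those 2 classes. Regions missing only in mESC DMSO were nearer, at 44% masked and 10.2% recurring, so that both classes missing from a DMSO set were higher in repeats than both missing from a dTAG set. Against the 10.7% of regions in all 4 sets the recurring share was higher, but at 20 to under 50 kb the values were 15.6% (13.6 to 17.3%) and 14.5% (13.7 to 15.2%), and at 50 to under 100 kb they were 8.99% and 10.7%. At each matched width, a comparison added after the data were seen, the intervals of both classes overlapped. Without the chromosome 4 block and the chromosome 12 cluster, 641 regions remained and the recurring share was 13.0% (10.9 to 14.5%), and regions at 50% or more fell in number from 26 to 12.

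**Figure D5:**
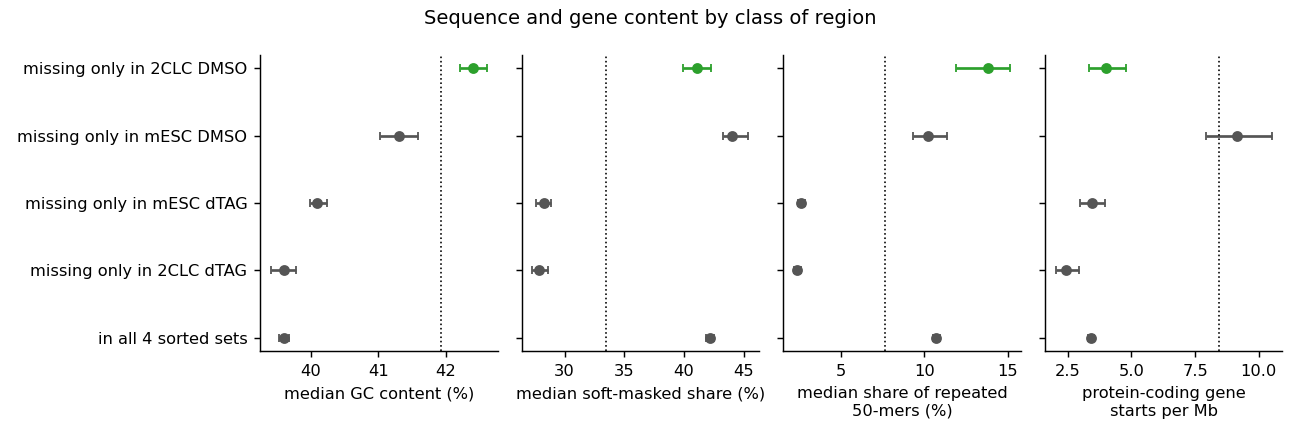
Median GC content, soft-masked share and share of recurring 50-base words (percent), and protein-coding gene starts per Mb, for the 661 regions (green) and 4 other classes (gray), with 95% intervals over regions for medians and exact Poisson intervals for gene starts. Dotted lines mark the autosomes, and the green points lie highest for GC and recurring words.

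Genes were sparser in the regions than over the autosomes. Protein-coding starts numbered 121, or 4.00 per Mb (3.32 to 4.78, exact Poisson interval for counting error only), against 8.45 over the autosomes, and 585 regions (88.5%) held none. Regions missing only in mESC DMSO had 9.15 per Mb (7.93 to 10.5), those in all 4 sets had 3.41, those missing only in mESC dTAG had 3.45, and those missing only in 2CLC dTAG had the fewest, 2.45 (2.02 to 2.95). By annotation 72.2% of region bases lay outside protein-coding genes, 26.3% in introns and 1.53% in exons, including 0.682% in untranslated exon parts, against 59.7%, 36.5%, 3.76% and 1.76% over the autosomes. Beside 0.582% of protein-coding starts, the regions held 203 processed pseudogenes (2.27% of those annotated), 45 unprocessed pseudogenes (2.52%), 1 transcribed processed pseudogene (0.372%) and 81 lincRNAs (1.56%). The regions took 1.23% of autosomal length, and antisense genes (0.687%) and miRNA genes (0.682%) were below that share. The chromosome 4 block alone held 95 gene starts of all types, 22 of them protein-coding.

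Among the gene lists, the only other one with more than 2 starts in regions was that of the clustered protocadherins, neuronal adhesion proteins that are each expressed from a promoter of their own. The region chr18:36959568-37019567, 60 kb, held 7 starts of annotated Pcdha genes, namely Pcdha5, Pcdha6, Pcdha7, Pcdha8, Pcdha9 and 2 entries for Pcdha11. The 57 genes of the family had 12 starts in domains of mESC DMSO and 6 in those of 2CLC DMSO, beside 29 for mESC dTAG and 23 for 2CLC dTAG. As shares of the family these were 21.1%, 10.5%, 50.9% and 40.4%, against 21.4%, 22.1%, 22.8% and 25.5% of all protein-coding starts in the same order. As with the zinc finger starts, these are counts of domain calls and not levels of H3K9me2. Of 11 starts in the 3 other sets, 8 (72.7%) lay outside 2CLC DMSO, against 5.63% of all such starts, again in the contrast that chose the regions. The unnamed set did not cover this region.

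No start of the families tied to the 2-cell state lay in a region, and for most of them the domain sets left no room for one. All 8 Zscan4, 7 Obox, 5 Tdpoz and 5 Usp17l starts lay in domains of every sorted set. Of the 2 Tcstv starts 1 was in the 3 other sets, and it was in 2CLC DMSO too. Among Pramel, Pramef and Oog genes, 1 of 11 starts in the 3 other sets (9.09%) lay outside 2CLC DMSO, in no region. With 0.582% of all protein-coding starts in a region, a count of 0 in families of this size is no result about them. Single genes of the 2-cell state, H3K9 methylation and pluripotency could not be members either. Zfp352 and Gm21761 started in domains of every sorted set, Dppa2 and Dppa4 outside those of mESC DMSO, and Ehmt1, Ehmt2, Trim28, Pou5f1 and the other genes checked in none.

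The other gene families are given beside the 5.63% of all protein-coding starts in the 3 other sets that lay outside 2CLC DMSO. Of the olfactory receptor genes, odor receptors that make up the largest mouse gene family, 5 of 887 such starts (0.564%) did so, and Olfr1423 and Olfr1424 lay in a region. For pheromone receptors it was 1 of 187 Vmn1r starts and none of 117 Vmn2r starts, and it was none of 22 Mup and 11 Skint starts. Higher shares came from small families. They were 4 of 40 (10%) for Klr and Clec genes, lectin-like receptors of immune cells, with Clec4n and Klra2 in regions, and 2 of 32 (6.25%) for Serpin genes, protease inhibitors, with Serpina3j in a region. They were 1 of 12 (8.33%) for Nlrp and Naip genes, with Nlrp9b in a region, and 1 of 2 for Gbp genes, with Gbp10 in a region. These shares belong to the contrast that chose the regions. Counts of 1 to 4 starts in such small families are no result about them.

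Single genes in other regions, named after their values were seen, had varied roles. Satb1, which encodes a chromatin organizer of T cells, started in a 75 kb region on chromosome 17, and Lrrk2 in one of 75 kb on chromosome 15. Adra1a (an adrenergic receptor), Pid1 and Fgf9 (a growth factor) started in regions of 65, 55 and 30 kb. The neighbors Dspp and Dmp1, matrix proteins of dentin and bone, shared a region of 50 kb, and Slamf7 and Cd48, receptors of lymphocytes, shared one of 55 kb. By gene body rather than start, 160 kb of the 270 kb of Stk32b, a kinase gene, lay in 2 regions, and 171 kb of the 210 kb of Armc4 lay in 3 regions, with the start of neither gene in a region.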

How the data were processed

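H3K9me2 was profiled by ULI-NChIP. According to the methods and labels, the authors aligned reads to mm10 (STAR 2.7.10, Picard 2.26.0, SAMtools 1.14, bedtools 2.30.0 and deepTools 3.5.1 are named in the submitters' notes), averaged coverage on a 5 kb step, took log2 ratios of immunoprecipitation to input, and extended domains from bins above a high percentile to a low one. Whether replicates were pooled was not stated. The deposited score was 0 throughout, and only positions were used. A domain is thus a call relative to other bins, not a level of H3K9me2.

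Overlaps were computed base by base with Python 3.11.15 and numpy 2.4.6, and the interval code was tested on simulated data. Genes came from GENCODE, with a gene start assigned to the region holding it. Recurring 50-base words, soft-masking and N were read from GRCm38.p6, and promoters from RefSeq (GRCm38.p6), matched by symbol within 1 kb of the GENCODE start, for 67 of the 121 starts in regions. Shares carry Wilson 95% intervals, medians order-statistic ones. No test was run, since each condition has 1 set. Genes were named if they start in the 10 widest regions, have 20 kb or more of body in a region of 100 kb or more, or belong to chosen lists. Regions were named if among the 10 widest or the widest of a chromosome with one of 100 kb or more. Others are said to be named after their values were seen. The regions and lists were chosen with earlier results of these data known. Alternatives changed joining, length limit, domain width, domain edges and N content, and left out each chromosome.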

Additional observations from a re-analysis of the deposited data

Results flagged for a closer look

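The rule for the regions covers autosomes. Applied to chromosome X, which it leaves out, the same steps gave 32 regions of 1.21 Mb in all, the widest of 145 kb, and on chromosome Y 1 region of 100 kb, and so a signal in data that the comparisons above do not use. The depth is unknown and neither chromosome was compared with the autosomes.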

How the results depend on the processing

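No paired analysis was possible because each condition has 1 domain set, with no values per replicate. The number of regions per region missing only in mESC dTAG and only in 2CLC dTAG was 0.479 and 0.660 and moved to 0.246 and 0.290 with domains of at least 50 kb only. These ratios, and that to mESC DMSO, kept their side of 1 there and at minimum runs of 50 kb and 10 kb, the settings added for them after the data were seen. Leaving out each autosome in turn moved none of the 10 summary values beyond its limit (1.5 times for number and length, the 95% interval otherwise), with 602 to 651 regions. The length limit and the domain width mattered most. A minimum run of 50 kb gave 167 regions, 15.5 Mb, a median width of 60 kb, 42.6% GC, 37.2% masked, 9.49% recurring words and 21.3% of bases in gene bodies (27.8% as reported). A minimum of 10 kb gave 999 regions, a median of 25 kb, 81.7% covered at least 50% by the unnamed set and 11.1% with 2CLC DMSO domains within 10 kb on both sides. With domains of at least 50 kb only, there were 338 regions, a median of 50 kb, 87.9% covered by the unnamed set, 14.5% flanked on both sides, 42.1% GC, 38.0% masked, 9.23% recurring words and 24.4% in gene bodies. Trimming the 3 other sets by 5 kb gave 24.2% in gene bodies. Any shared base with the unnamed set gave 88.5% and a cover of 90% gave 78.7%. A distance of 50 kb gave 15.0% flanked on both sides, and counting genes by at least 50% of their body gave 3.04 per Mb. Recurring words under both width settings were below the 10.7% of regions in all 4 sets, which was not recomputed under them. The cause was not tested. Keeping the 3 runs just under 20 kb, and leaving out the chromosome 4 block with the chromosome 12 cluster, were added after the data were seen and moved none of the values beyond these limits. Depth is unknown, so precision from counting cannot be given.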
